A study of Homo sapiens with 8 samples.

Results

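Genes of mitochondrial protein import and of the folding machinery inside mitochondria were examined in EPC2-hTERT cells, an established human esophageal epithelial line immortalized with telomerase. The rule goes by gene names, and the set was proposed with fold changes of these data known. It holds every gene of the deposited table whose symbol starts with TIMM or TOMM followed by a number, together with HSPD1, HSPE1, HSPA9, GRPEL1, DNAJC19, PAM16, PMPCA, PMPCB, CHCHD4, GFER, SAMM50 and OXA1L. These are 36 of the 25369 genes listed, and 35 of them passed a filter of 1 RPKM (reads per kilobase of gene length, scaled to the library total) in at least 4 libraries, as did 11122 genes in all. TOMM20L, a relative of TOMM20, did not pass, with 0.200 RPKM at most and 0 in 5 of the 8 libraries.

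All cultures came from this 1 line, with the genotype given as WT. They were stratified on porous membranes with 4 days of exposure to air, an air-liquid interface culture. Both groups also had 1.8 mM CaCl2 for 5 days, and 50 µg/ml pituitary extract and 1 ng/ml EGF. The vehicle group (4 libraries) received DMSO and the treated group (4 libraries) received 1 mM dimethyloxalylglycine (DMOG), both for 18 h. DMOG competes with 2-oxoglutarate and so inhibits prolyl hydroxylases, which normally label the alpha subunits of hypoxia-inducible factor (HIF) for breakdown. The comparison asks how expression differs with DMOG. No library separates the block of these enzymes from other effects of the compound. Whether replicates were separate cultures is not in the labels, and p-values reflect just the spread among these libraries, which may be technical.

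Most mitochondrial proteins are encoded in the nucleus, made in the cytosol and brought in through the TOM complex of the outer membrane. From there the TIM23 complex and its motor draw proteins with a cleavable leader into the matrix, small TIM chaperones ferry membrane proteins across the intermembrane space to the TIM22 complex, and a disulfide relay traps small cysteine-rich proteins. In the matrix, peptidases remove the leader and the HSPA9 and HSPD1 chaperones fold the arriving chain.

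The library totals behind the RPKM, recovered from the values themselves, were 31245695 to 39931833 reads. In each library, 10558 to 11242 genes reached 1 RPKM. DMOG replicate 2 lay, after scaling, within the vehicle range for 72.2% of all genes tested, though not for the sum of HIF-induced genes given below. The authors' own comparison left out replicate 2 of both groups. The reason was not given in the sources used here. Results are therefore given over replicates 1, 3 and 4 (6 libraries) and over all 8 libraries. The HIF-induced genes CA9, ENO2, EGLN3 and NDUFA4L2, summed to 22.4 to 37.1 RPKM with vehicle and to 397, 62.5, 157 and 859 RPKM in DMOG replicates 1 to 4. The 6 keratinocyte markers summed to 10065 to 18111 RPKM with vehicle and 14014 to 14399 with DMOG. In the 6 libraries KRT5 and KRT14 were called higher (log2 fold change 0.75 ± 0.19 and 0.69 ± 0.14 SE, limma adjusted p = 0.0292 and 0.0154), but neither as deposited (0.0784 and 0.0583) nor over 8 libraries (0.223 and 0.225), and both were highest in vehicle replicate 2. The other 4, IVL (1.24), KRT13 (0.09), TP63 (-0.28) and KRT4 (-0.56), were not called, TP63 being called lower as deposited (-0.57, adjusted p = 0.00845). Fibroblast markers summed to 0.0595 RPKM at most, and DCN and LUM were at 0 in all 8 libraries. Of the 5 immune markers, whose sum was 44.8 to 74.6 RPKM with vehicle and 62.1 to 93.4 with DMOG, nearly all of the signal was CD68, while MS4A1 was at 0 in all 8 libraries and PTPRC in 7. In the 6 libraries CD68 was called higher (0.79 ± 0.23, adjusted p = 0.0388, or 0.117 as deposited) and CD14 lower (-1.05 ± 0.14, adjusted p = 0.00597), from 1.72 ± 0.480 to 0.200 ± 0.0645 RPKM (SD, n = 3 each). The part of these markers in the results below was not tested. The 4 endothelial markers summed to 1.44 to 1.97 and 0.87 to 1.69 RPKM, nearly all VWF, with CDH5 at 0 throughout.

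Transcripts of the import machinery were lower with DMOG in 3 of the 4 treated libraries. In the 6 libraries, 19 of the 35 tested genes (54.3%) fell and 0 rose at an adjusted p under 0.05 (limma, two-sided), against a background of 16.1% lower and 13.7% higher among all 11122 genes. At an unadjusted p under 0.05, 26 were lower and 0 higher, against 23.3% and 21.6%. The matrix chaperonin (2 of 2 genes) and the import motor (5 of 5) fell throughout, the small TIM chaperones in 4 of 6 and the TOM receptors and channel in 5 of 8, and 0 of 2 peptidase genes, 0 of 2 insertion genes and the TIM22 channel gene passed. Of the 19 genes, 14 were at least 1.5-fold lower and 8 at least 2-fold lower. Over the 35 genes the log2 fold change had a median of -0.58, and over all genes tested one of 0.00. With the replicate number as a block, 23 of the 35 were lower, against 21%. The count changed with the library left out, and so did the share of all genes called. It was 8, 10 and 9 without vehicle replicates 1, 3 and 4 (against 4.85%, 9.15% and 5.28% of all genes). Without DMOG replicates 1, 3 and 4 it was 9, 24 and 15 (against 5.46%, 22.7% and 13.9%). The median of the set moved less, to -0.58, -0.55 and -0.57 without these vehicle replicates. It was -0.61, -0.74 and -0.40 without DMOG replicates 1, 3 and 4. Because of how the set was proposed, the counts describe it and are no independent evidence that it stands apart. In such bulk libraries, fewer cells of a type and less RNA per cell cannot be told apart.

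**Figure D1:**
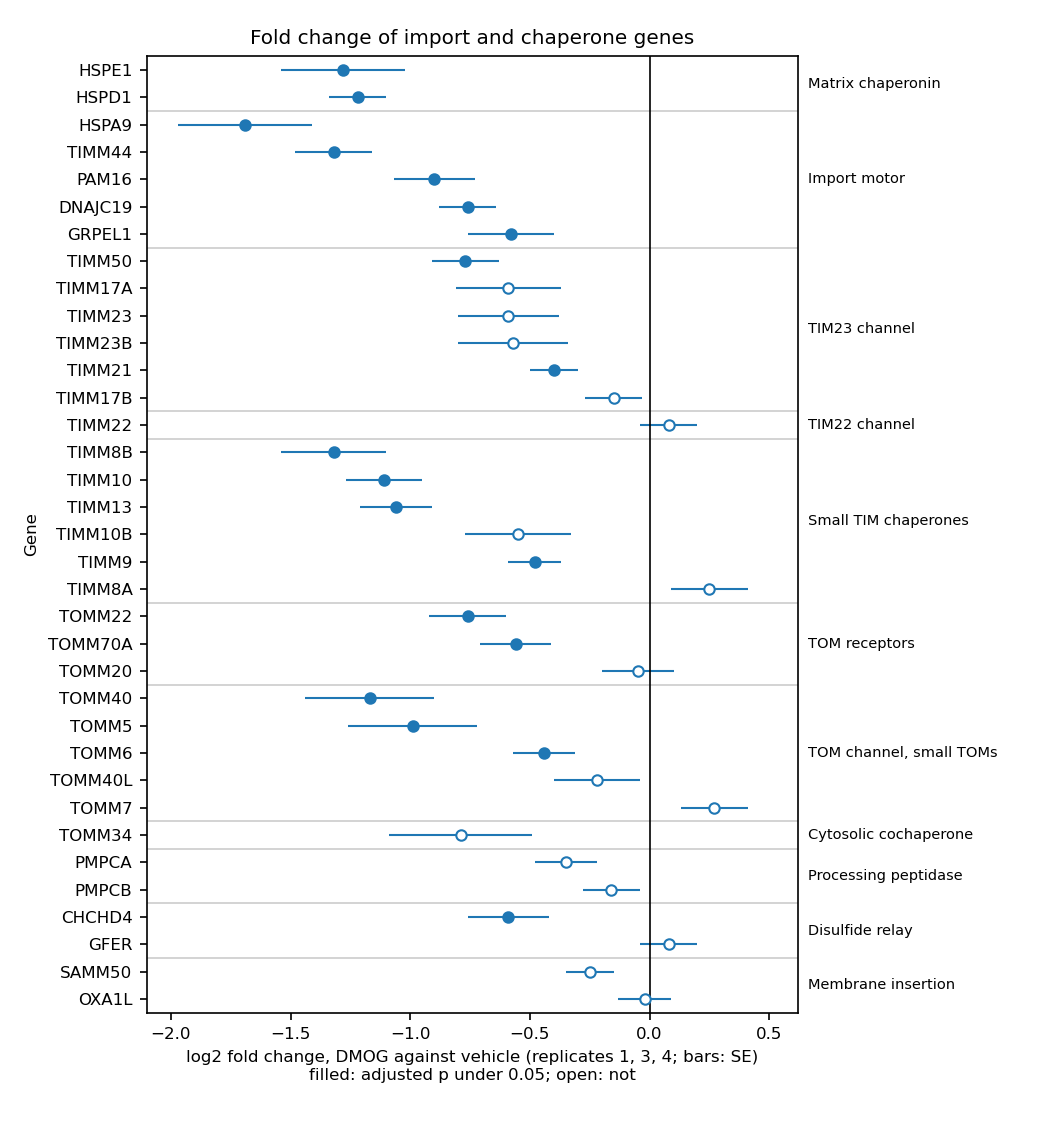
Log2 fold change of DMOG against vehicle for the 35 genes that passed the filter, grouped by role, over replicates 1, 3 and 4 of each group, on the log2(RPKM + 1) scale after median-ratio scaling (points, estimate; bars, SE; filled points, adjusted p under 0.05 by limma). All 19 filled points lie to the left of 0, from HSPA9 at -1.69 to TIMM21 at -0.40, and TOMM7, TIMM8A, GFER and TIMM22 lie to the right of it as open points.

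Fold changes are differences of log2(RPKM + 1) after each library was divided by a median-ratio factor, which was 1.12, 1.07 and 1.14 in vehicle replicates 1, 3 and 4 and 0.917, 0.934 and 0.852 in DMOG replicates 1, 3 and 4. They are therefore relative to the median gene and understate the change of genes with low values. On the RPKM as deposited, the median gene stood at -0.26, the 35 genes at -0.84, and 29 of them were called lower and 0 higher against a background of 34.5% and 6.13%. Values per library below are RPKM as deposited and carry this shift. The authors' deposited table, which lists 35 of the set, has 19 lower and 0 higher at an adjusted p under 0.05, against 17.6% lower and 18.8% higher among its 13424 genes, and all 19 are those called here.

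With vehicle, the set covered a wide range of levels per length. HSPA9 was highest at 129 ± 14.5 RPKM (SD, n = 4), followed by HSPD1 at 88.6 ± 23.2, TOMM7 at 84.3 ± 5.60 and TOMM6 at 79.2 ± 5.64, and the last 3 of these lay within each other's spread. TOMM20 at 42.7 ± 6.31, TOMM5 at 36.1 ± 0.338, TOMM22 at 35.9 ± 2.42 and OXA1L at 35.3 ± 2.32 came next. The last 3 of these did not differ beyond their spread either. TOMM20, at 37.2 to 51.8 RPKM, lay above TOMM5, at 35.7 to 36.5, in every vehicle library. At the low end were PAM16 at 5.38 ± 0.824, CHCHD4 at 5.33 ± 0.614, TOMM40L at 4.46 ± 0.495 and TIMM23B at 1.91 ± 0.495. The median over the 35 genes was 16.2 RPKM, against 9.09 over all genes tested. Their median coefficient of variation between vehicle libraries was 8.76%, against 13.3% over all genes tested.

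The matrix chaperonin consists of HSPD1 (HSP60), which forms the folding chamber, and HSPE1 (HSP10), its lid. The 2 genes stand head to head on chromosome 2 (hg19 198351308-198364998, minus strand, and 198364721-198368187, plus strand), and the listed gene bodies share 278 bases on opposite strands. In the RefSeq table, on another build, the gene bodies do not overlap. The 104 bases between the RefSeq starts are shown because 1 stretch then precedes both genes, written 5′ to 3′ on the strand of HSPE1 (RefSeq promoter table, GRCh38.p14, chr2:197500275-197500378). The capitals mark an E-box, CACGTG, that begins 22 bases before the HSPE1 start.
HSPE1 and HSPD1: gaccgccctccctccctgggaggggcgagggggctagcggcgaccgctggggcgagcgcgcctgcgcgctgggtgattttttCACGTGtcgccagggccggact
The same 6 letters begin 19 bases before the start of HSPA9, the gene with the lowest fold change of the set, on the minus strand (chr5:138575402-138575447).
HSPA9: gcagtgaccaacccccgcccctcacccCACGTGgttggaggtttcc
A match of letters is a description, and binding of any factor was not measured here.

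Both chaperonin genes fell with DMOG. HSPD1 had 99.4, 56.6, 88.1 and 110.2 RPKM in vehicle replicates 1 to 4 and 35.1, 84.7, 31.6 and 34.9 in DMOG replicates 1 to 4. DMOG replicates 1, 3 and 4 lay close together below every vehicle library, and DMOG replicate 2 lay inside the vehicle range, which vehicle replicate 2 widens downward. HSPE1 had 16.8, 12.04, 17.6 and 16.8 RPKM with vehicle and 5.73, 14.3, 7.95 and 2.96 with DMOG. Its DMOG replicates 1, 3 and 4 were again below the vehicle range, with replicate 4 the lowest. The log2 fold changes in the 6 libraries were -1.22 ± 0.12 for HSPD1 (SE, limma adjusted p = 0.00318) and -1.28 ± 0.26 for HSPE1 (adjusted p = 0.0142). The HSPE1 call was lost on leaving out replicate 1 or 4 of the vehicle group or DMOG replicate 1 (adjusted p = 0.0552, 0.0521 and 0.0520). Both genes have processed pseudogenes, and the handling of strand and of reads with several positions was not given in the sources used here. All 3467 bases of HSPE1 also lie within HSPE1-MOB4 on the same strand. How reads common to such genes were counted is not known here. The levels of HSPD1 and HSPE1 are uncertain to that extent.

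All 5 genes of the presequence import motor in the set fell, and HSPA9 fell furthest. Outside the set, GRPEL2, a relative of GRPEL1, did not pass (log2 fold change 0.25 ± 0.15 SE, limma adjusted p = 0.238). DNAJC15, a relative of DNAJC19 and also outside it, fell (-0.56 ± 0.12, adjusted p = 0.0176). HSPA9 (mortalin, the matrix HSP70 that pulls the chain inward, chromosome 5, hg19 137890571-137911318) had 119, 116, 133 and 148 RPKM in vehicle replicates 1 to 4 and 31.5, 120.1, 52.3 and 21.0 in DMOG replicates 1 to 4. Over replicates 1, 3 and 4 its mean went from 133 ± 14.2 to 34.9 ± 15.96 RPKM (SD, n = 3 each). The log2 fold change was -1.69 ± 0.28 (SE, limma adjusted p = 0.00858). From the most abundant of the 35 transcripts in the vehicle libraries it went to 16.2% of the vehicle mean in DMOG replicate 4, 24.4% in replicate 1 and 40.6% in replicate 3, with 93.1% in replicate 2.

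TIMM44, which tethers HSPA9 to the channel (chromosome 19, hg19 7991603-8008708), had 24.1, 19.8, 21.7 and 26.0 RPKM with vehicle and 6.69, 23.9, 9.57 and 5.79 with DMOG. The groups overlapped only through DMOG replicate 2, and the log2 fold change was -1.32 ± 0.16 (limma adjusted p = 0.00458). DNAJC19, a J-protein that stimulates the HSPA9 ATPase, had 8.07, 6.66, 7.68 and 8.72 RPKM with vehicle and 3.79, 6.92, 4.15 and 2.79 with DMOG (log2 fold change -0.76 ± 0.12, adjusted p = 0.00862). PAM16, the partner of such J-proteins in the motor, had 4.97, 4.43, 5.87 and 6.23 RPKM with vehicle and 2.40, 4.66, 1.48 and 2.30 with DMOG. In PAM16 the lowest library was DMOG replicate 3 and not replicate 4. Its log2 fold change was -0.90 ± 0.17 (adjusted p = 0.0122), with the call lost without vehicle replicate 4 (0.0544). All 11122 bases of PAM16 lie within CORO7-PAM16 on the same strand, so its level and its low rank are uncertain as for HSPE1. GRPEL1, the nucleotide exchange factor of HSPA9, stood at 28.0 to 33.0 RPKM with vehicle and at 11.8 to 20.8 in DMOG replicates 1, 3 and 4, with 28.8 in replicate 2. Its call was the closest to the threshold (-0.58 ± 0.18, adjusted p = 0.0493) and was lost on leaving out any library except DMOG replicate 3 (0.0722 to 0.136) and with a pseudocount of 0.1 (0.0513).

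**Figure D2:**
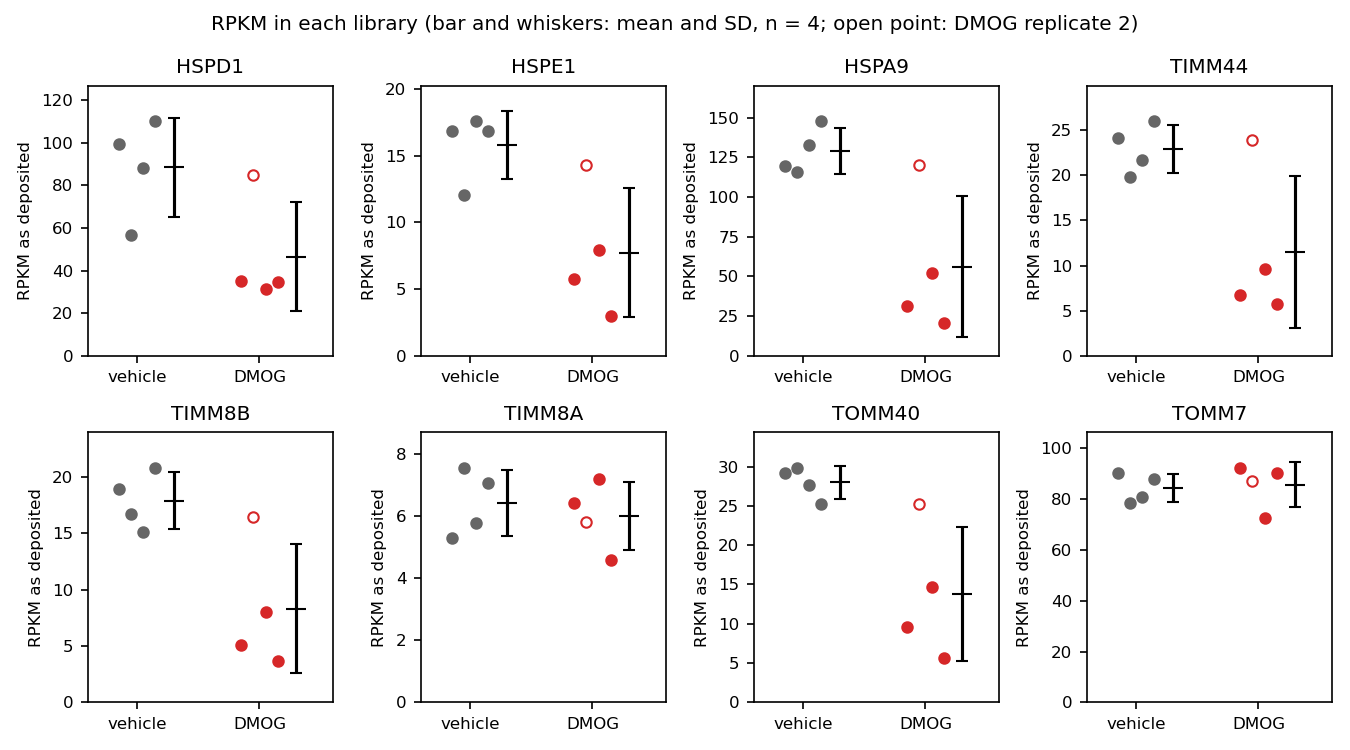
RPKM as deposited for 8 of the genes (points, libraries; horizontal bar and whiskers, mean and SD, n = 4; open point, DMOG replicate 2; each panel starts at 0 and has its own scale). In HSPD1, HSPE1, HSPA9, TIMM44, TIMM8B and TOMM40 the filled DMOG points lie below all vehicle points and the open point lies among or near them, whereas in TIMM8A and TOMM7 the groups overlap.

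Of the 6 genes of the TIM23 channel, which takes leader-bearing proteins through the inner membrane, 2 fell and 4 did not pass. TIMM50, the receptor of the complex, had 14.6, 15.8, 14.3 and 12.9 RPKM with vehicle and 6.33, 13.3, 7.82 and 4.90 with DMOG. DMOG replicates 1, 3 and 4 were below all vehicle libraries, and the log2 fold change was -0.77 ± 0.14 (limma adjusted p = 0.0119, or 0.0552 without vehicle replicate 1 and 0.0517 without DMOG replicate 1). TIMM21, which links TIM23 with the TOM complex, stood at 5.77 to 6.63 RPKM with vehicle and at 3.55 to 3.85 in DMOG replicates 1, 3 and 4, against 6.26 in replicate 2. Its log2 fold change was -0.40 ± 0.10 (adjusted p = 0.0277), and the call was lost without vehicle replicate 1, 3 or 4 or DMOG replicate 1 (0.0999, 0.0881, 0.0789 and 0.0858).

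TIMM17A, a channel subunit, had 20.03, 21.5, 21.8 and 20.2 RPKM with vehicle and 12.5, 18.4, 14.6 and 6.83 with DMOG. All 4 DMOG libraries were below all vehicle libraries, by little in replicate 2. The log2 fold change of -0.59 ± 0.22 missed the threshold (limma adjusted p = 0.0829) and passed it with the replicate number as a block (0.0385), without DMOG replicate 3 (0.0277) and with vehicle replicate 2 added (0.0412). TIMM23, another channel subunit, gave the same size (-0.59 ± 0.21, adjusted p = 0.0736, 0.0362 with the block, 0.00803 without DMOG replicate 3 and 0.0361 with vehicle replicate 2 added). TIMM23B, a near-identical copy of TIMM23 that also contains NCOA4 within its listed span, was at -0.57 ± 0.23 (adjusted p = 0.0998, or 0.0141 without DMOG replicate 3). At its low level the estimate depended on the scale, with -1.17 at a pseudocount of 0.1 and -1.31 in limma-voom, neither of them called, and reads of the 2 copies may be split between them. TIMM17B, the paralog of TIMM17A, was at -0.15 ± 0.12 (0.340), and it shares 232 bases with PQBP1 on the opposite strand. All 15171 bases of TIMM17A lie within the listed span of SRGAP2D on the same strand (mean 0.986 RPKM with vehicle and 1.14 with DMOG). How reads common to both were counted is not known here.

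TIMM22, the channel that inserts carrier proteins into the inner membrane, had 10.8, 10.8, 11.1 and 10.5 RPKM with vehicle and 9.82, 9.97, 10.7 and 7.652 with DMOG. The groups overlapped through DMOG replicate 3. Its log2 fold change was 0.08 ± 0.12 (limma adjusted p = 0.618) and -0.19 on the RPKM as deposited, so its sign depends on the scaling. Among the chaperones that supply TIMM22, TIMM10 had 12.6, 15.2, 12.8 and 14.4 RPKM with vehicle and 4.87, 11.5, 5.74 and 3.23 with DMOG, with every DMOG library below every vehicle library, and fell by 1.11 ± 0.16 on the log2 scale (adjusted p = 0.00690). TIMM9, with which TIMM10 forms a ring, fell by less (-0.48 ± 0.11, adjusted p = 0.0215), and its call was lost without vehicle replicate 1, 3 or 4 or DMOG replicate 1 (0.0820, 0.0600, 0.0815 and 0.0625). TIMM10B, which docks that ring on TIMM22, was at -0.55 ± 0.22 (adjusted p = 0.0963, or 0.0134 without DMOG replicate 3).

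The second ring of small TIM chaperones pairs TIMM8A or TIMM8B with TIMM13. TIMM8B (chromosome 11, hg19 111955539-111957522) had 18.96, 16.7, 15.1 and 20.8 RPKM with vehicle and 5.11, 16.5, 8.03 and 3.68 with DMOG. TIMM13 (chromosome 19, hg19 2425622-2427914) had 20.3, 20.1, 18.4 and 22.7 RPKM with vehicle and 6.99, 17.3, 9.72 and 6 with DMOG. DMOG replicates 1, 3 and 4 were below the vehicle range in both genes, and in TIMM13 replicate 2 was below it as well. The log2 fold changes were -1.32 ± 0.22 for TIMM8B (limma adjusted p = 0.00919) and -1.06 ± 0.15 for TIMM13 (adjusted p = 0.00666). TIMM8A, the paralog that underlies deafness-dystonia syndrome, stood at 5.30 to 7.56 RPKM with vehicle and 4.59 to 7.21 with DMOG. Its log2 fold change was 0.25 ± 0.16 (adjusted p = 0.242) and -0.01 as deposited.

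Among the 3 receptors of the TOM complex, TOMM22 and TOMM70A fell and TOMM20 did not pass. TOMM22, the central receptor, had 37.6, 32.9, 38.2 and 35.1 RPKM with vehicle and 16.3, 31.7, 22.8 and 13.97 with DMOG. TOMM70A, the receptor that takes carrier proteins from cytosolic chaperones, had 18.7, 14.9, 18.6 and 19.3 RPKM with vehicle and 10.99, 14.7, 12.3 and 7.53 with DMOG. In both genes every DMOG library was below every vehicle library, with DMOG replicate 2 just under the lowest of them. The log2 fold change of TOMM22 was -0.76 ± 0.16 (limma adjusted p = 0.0151), and the call was lost without vehicle replicate 1 or 3 or without DMOG replicate 1 (0.0606, 0.0509 and 0.0640). That of TOMM70A was -0.56 ± 0.15 (adjusted p = 0.0315), with the call lost without vehicle replicate 1, 3 or 4 or DMOG replicate 1 (0.0939, 0.0856, 0.0957 and 0.0786). TOMM20, the receptor for leader peptides, stood at 37.2 to 51.8 RPKM with vehicle and 25.9 to 39.5 with DMOG, with a log2 fold change of -0.05 ± 0.15 (adjusted p = 0.827).

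Of the channel and small subunits of TOM, 3 of 5 fell. TOMM40, the pore of the outer membrane (chromosome 19, hg19 45394477-45406946), had 29.2, 29.8, 27.7 and 25.2 RPKM with vehicle and 9.63, 25.3, 14.7 and 5.61 with DMOG. TOMM5 had 35.7, 36.1, 36.5 and 36.0 RPKM with vehicle, the smallest coefficient of variation of the 35 genes (0.938%), and 13, 29.2, 23.5 and 9.37 with DMOG. DMOG replicate 2 was at the lower edge of the vehicle range in TOMM40 and below it in TOMM5, and the other DMOG libraries were clearly below it in both. The log2 fold changes were -1.17 ± 0.27 for TOMM40 (limma adjusted p = 0.0205) and -0.99 ± 0.27 for TOMM5 (adjusted p = 0.0325). The TOMM40 call was lost without vehicle replicate 1, 3 or 4 or DMOG replicate 1 (0.0740, 0.0612, 0.0592 and 0.0700), and the TOMM5 call without those libraries (0.0916, 0.0871, 0.0893 and 0.107) or DMOG replicate 4 (0.0535).

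Among the remaining small subunits, TOMM6 stood at 72.8 to 86.1 RPKM with vehicle and 42.4 to 69.6 with DMOG, without overlap (log2 fold change -0.44 ± 0.13, limma adjusted p = 0.0435, with the call lost on leaving out any library except DMOG replicate 3, 0.0901 to 0.142). TOMM7 stood at 78.5 to 90.3 RPKM with vehicle and 72.7 to 92.2 with DMOG. Its log2 fold change was 0.27 ± 0.14 (adjusted p = 0.162), with 0.0210 without DMOG replicate 3 and a value of -0.03 on the RPKM as deposited. TOMM40L, the low paralog of TOMM40, was at -0.22 ± 0.18 (adjusted p = 0.387). All 4808 bases of TOMM40L lie within the listed span of SRGAP2D on the same strand, with the limit named for TIMM17A. TOMM34, a cytosolic partner of HSP70 and HSP90 that keeps precursors unfolded, had 12.1, 10.6, 10.95 and 8.98 RPKM with vehicle and 5.25, 10.2, 7.29 and 2.41 with DMOG. Its libraries spread widely with DMOG, and its log2 fold change of -0.79 ± 0.30 missed the threshold (0.0813) but passed it with the replicate block (0.0230), without DMOG replicate 3 (0.0205) and with vehicle replicate 2 added (0.0424).

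In the intermembrane space, CHCHD4 (MIA40), the oxidoreductase of the disulfide relay, had 5.78, 5.13, 4.56 and 5.87 RPKM with vehicle and 3.54, 5.87, 2.49 and 1.96 with DMOG. DMOG replicate 2 matched the highest vehicle library, and the other DMOG libraries were below all vehicle libraries. CHCHD4 fell by 0.59 ± 0.17 on the log2 scale (limma adjusted p = 0.0399), with the call lost without vehicle replicate 1, 3 or 4 or DMOG replicate 3 or 4 (0.129, 0.0652, 0.125, 0.0574 and 0.0738). GFER (ALR), which reoxidizes CHCHD4, had 8.08, 7.996, 7.77 and 6.86 RPKM with vehicle and 6.53, 5.92, 6.23 and 6.82 with DMOG, all DMOG libraries being lower as deposited. After scaling its log2 fold change was 0.08 ± 0.12 (adjusted p = 0.624), against -0.19 as deposited.

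Of the 4 genes for leader removal and membrane insertion, 0 passed the test in the 6 libraries, with PMPCA and SAMM50 below an unadjusted p of 0.05 (0.0339 and 0.0385). PMPCA and PMPCB are the subunits of the peptidase that removes leader peptides. PMPCA had 18.0, 14.2, 17.4 and 16.5 RPKM with vehicle and 10.9, 14.5, 13.2 and 8.70 with DMOG, and PMPCB had 7.996, 8.66, 8.97 and 9.35 with vehicle and 5.87, 7.54, 7.31 and 5.71 with DMOG. As deposited, all PMPCB values were lower with DMOG, while in PMPCA replicate 2 lay inside the vehicle range. The log2 fold changes after scaling were -0.35 ± 0.13 for PMPCA (limma adjusted p = 0.0846, with 0.0438 under the block and 0.0196 without DMOG replicate 3) and -0.16 ± 0.12 for PMPCB (adjusted p = 0.329). PMPCB shares 2213 bases with DNAJC2 on the opposite strand.

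SAMM50, which inserts barrel proteins into the outer membrane, had 15.3, 16.3, 15.9 and 17.2 RPKM with vehicle and 11.6, 15.2, 11.4 and 9.66 with DMOG. OXA1L, which inserts proteins into the inner membrane from the matrix side, had 37.4, 33.0, 33.7 and 37.2 RPKM with vehicle and 27.2, 36.6, 28.9 and 30.7 with DMOG. SAMM50 did not overlap between the groups as deposited, and OXA1L overlapped through replicate 2. Their log2 fold changes were -0.25 ± 0.10 (limma adjusted p = 0.0929) and -0.02 ± 0.11 (0.920).

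The treated libraries were graded in the same way across much of the set. The 35 genes summed to 914.2, 831.5, 900.9 and 948.8 RPKM in vehicle replicates 1 to 4 and to 489.7, 836, 549.8 and 424.9 in DMOG replicates 1 to 4. Relative to the mean of the scaled vehicle libraries, the median gene of the set stood at -0.52 in DMOG replicate 1, -0.34 in replicate 3 and -0.93 in replicate 4 on the log2 scale, with an SD of 0.304. Replicate 4 was the lowest of these 3 for 25 of the 35 genes (71.4%), against 40.1% of all genes tested. The sum of the 4 HIF-induced genes had the opposite order, highest in replicate 4 and lowest, among these 3, in replicate 3. Whether the 2 are linked was not tested, and with 4 treated libraries no correlation is given.

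**Figure D3:**
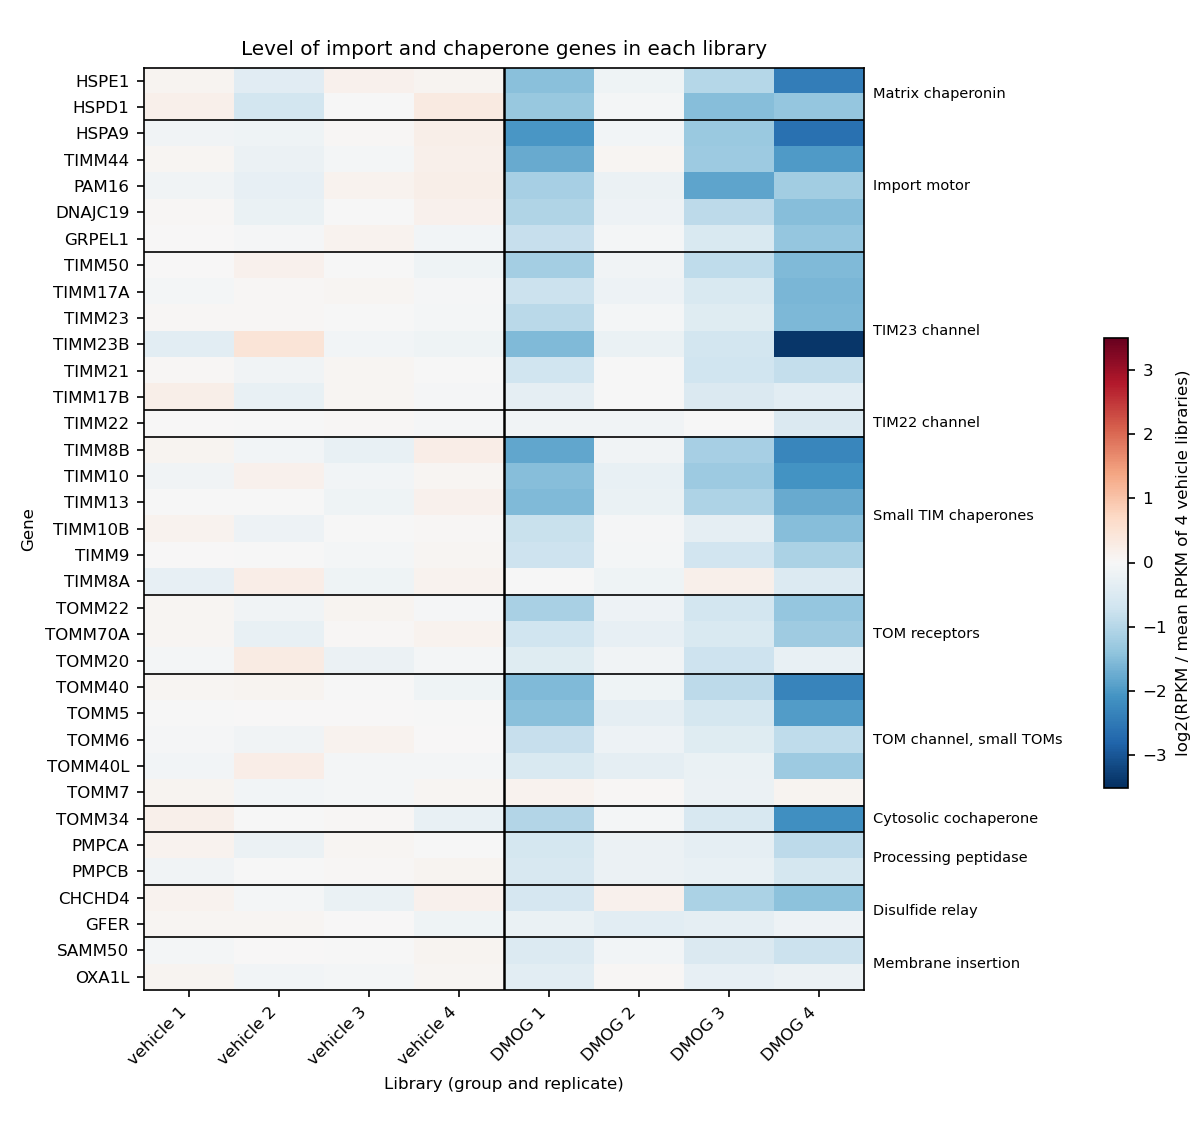
Level of the 35 genes in each library as log2 of RPKM over the mean of the 4 vehicle libraries (color scale at right; rows, genes grouped by role; columns, libraries). DMOG replicates 1, 3 and 4 are blue in most rows, darkest in replicate 4, while DMOG replicate 2 resembles the vehicle columns and TOMM7, TIMM8A, TIMM22 and GFER stay pale.

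Over all 8 libraries, limma called 0 of the 35 genes lower and 0 higher, as it called 0% of all genes in either direction. At an unadjusted p under 0.05, 21 of the 35 were lower and 0 higher, against 16.3% lower and 14% higher among all genes. The median log2 fold change of the set was -0.45. HSPA9 had the largest estimate, -1.27 ± 0.39 (SE, adjusted p = 0.118). Without DMOG replicate 2, 22 of the 35 were called lower, against 17.7% of all genes. In that library the median gene of the set stood at -0.07 relative to the scaled vehicle mean, against -0.54, -0.29 and -0.93 in replicates 1, 3 and 4. After scaling, replicate 2 lay within the vehicle range for 21 of the 35 genes (60%, against 72.2% of all genes tested), below it for 11 (31.4% against 15.2%) and above it for CHCHD4, OXA1L and TOMM7 (8.57% against 12.6%).

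Separation of the scaled values needs no model. DMOG replicates 1, 3 and 4 lay below all 4 vehicle libraries for 24 of the 35 genes (68.6%), against a background of 22.1%, and above them for 0, against 20.3%. With replicate 2 included, all DMOG libraries lay below all vehicle libraries for 8 genes (22.9%, against 7.33%) and above them for 0 (against 5.04%). The 8 were DNAJC19, TIMM10, TIMM13, TIMM17A, TOMM22, TOMM5, TOMM6 and TOMM70A. These 8 come from the motor, TIM23, the small TIM chaperones and TOM.

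Because some partners had unlike fold changes, the ratio of RPKM between them within a library was compared as a description, with no test. TIMM8A to TIMM8B was 0.279, 0.454, 0.384 and 0.339 in vehicle replicates 1 to 4 and 1.26, 0.353, 0.898 and 1.25 in DMOG replicates 1 to 4. The pair thus went from a clear excess of TIMM8B to near equality or an excess of TIMM8A in DMOG replicates 1, 3 and 4. TIMM9 to TIMM10 was 0.708 to 0.870 with vehicle, 1.35, 1.2 and 1.55 in DMOG replicates 1, 3 and 4, and 0.905 in replicate 2. TOMM40 to TOMM40L was 5.75 to 7.03 with vehicle and 3.06 to 3.87 in DMOG replicates 1, 3 and 4, against 7.08 in replicate 2. HSPD1 to HSPE1 was 4.70 to 6.55 with vehicle and 6.13, 5.93, 3.97 and 11.8 with DMOG, without a common direction. This ratio carries the uncertainty in the HSPE1 level named above. TIMM17A to TIMM17B (0.844 to 1.25 with vehicle) and PMPCA to PMPCB (1.64 to 2.25) overlapped between the groups. DMOG replicate 4 was the lowest library in both, at 0.426 and 1.52. For TIMM17A to TIMM17B, DMOG replicate 1 also lay below the vehicle range, at 0.752, and replicates 2 and 3 lay inside it (0.906 and 0.996).

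**Figure D4:**
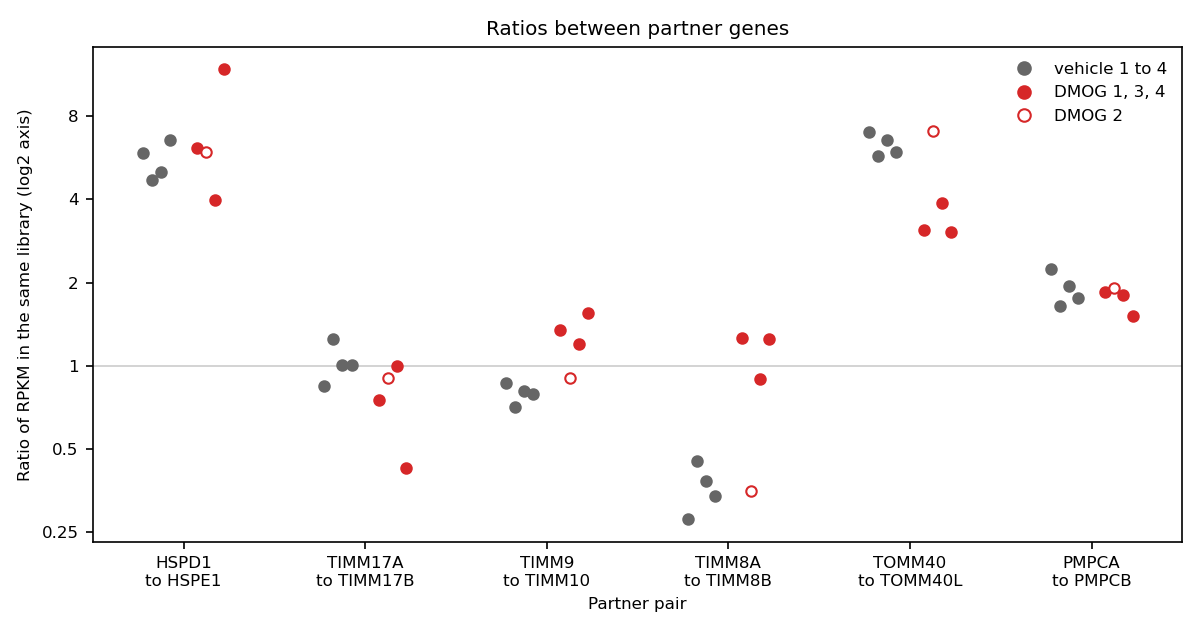
Ratio of RPKM between partner genes in the same library on a log2 axis (gray, vehicle replicates 1 to 4; filled red, DMOG replicates 1, 3 and 4; open red, DMOG replicate 2). The filled red points lie above the vehicle points for TIMM9 to TIMM10 and TIMM8A to TIMM8B and below them for TOMM40 to TOMM40L, and overlap with or straddle them for the other 3 pairs.

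Neighboring parts of the mitochondrial machinery were read from lists in the same 6 libraries, where 16.1% of all genes were lower and 13.7% higher. Of 19 tested genes with other roles in import or matrix folding, 8 fell and 1 rose (median log2 fold change -0.25). TRAP1, the mitochondrial HSP90, went from 31.6 ± 4.35 to 9.80 ± 1.37 RPKM (SD, n = 3 each) and fell by 1.31 ± 0.13 (SE, limma adjusted p = 0.00318). BCS1L, a translocase for the Rieske protein, fell by 1.25 ± 0.16 (adjusted p = 0.00505), and MIPEP, an intermediate peptidase, by 0.77 ± 0.15 (0.0132). MTCH1, an outer membrane protein related to the MTCH2 insertase, rose by 0.42 ± 0.12 (0.0404, with 0.12 and adjusted p = 0.380 as deposited).

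Of 10 mitochondrial proteases, 4 fell and 0 rose (median -0.35). LONP1, the matrix protease that degrades misfolded proteins, went from 32.7 ± 4.44 to 10.2 ± 1.11 RPKM (SD, n = 3 each), and had a log2 fold change of -1.30 ± 0.14 (limma adjusted p = 0.00366). OMA1, a stress-activated inner membrane protease, was at -0.93 ± 0.14 (adjusted p = 0.00700), and PARL, a rhomboid protease, at -0.57 ± 0.14 (0.0265). Of 9 genes of cristae junctions and prohibitins, 6 fell and 0 rose (median -0.68), led by APOO at -1.18 ± 0.14 (0.00488), PHB at -1.16 ± 0.20 (0.00997) and CHCHD3 at -0.68 ± 0.10 (0.00635).

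The cytosol's own chaperonin, which is not mitochondrial, had 3 of 8 subunit genes lower and 0 higher (median -0.51). CCT5 was at -1.01 ± 0.30 (limma adjusted p = 0.0424), CCT6A at -0.76 ± 0.19 (0.0264) and CCT7 at -0.69 ± 0.15 (0.0166). Among 11 tested regulators of mitochondrial gene expression and of chaperone genes, 2 fell and 0 rose (median -0.28), a share near that of all genes. ATF5, a transcription factor of the mitochondrial unfolded protein response, was at -0.90 ± 0.15 (adjusted p = 0.00935) and TFB2M, a mitochondrial transcription factor, at -0.94 ± 0.28 (0.0444). HSF1, which drives heat shock genes, did not pass (0.24 ± 0.12, 0.156), nor did NRF1, an activator of nuclear genes for mitochondrial proteins (0.58 ± 0.19, 0.0598). All 4 HIF-induced genes rose, with log2 fold changes of 4.83 ± 0.62 for ENO2, 4.28 ± 0.58 for CA9, 3.74 ± 0.78 for EGLN3 and 3.65 ± 0.57 for NDUFA4L2 (adjusted p = 0.00535, 0.00602, 0.0152 and 0.00794). Over 8 libraries 0 genes of any of these lists were called by limma, with 9, 4, 6, 4 and 2 lower at an unadjusted p under 0.05 in the order given (against 16.3% of all genes) and with 2 regulators and 4 HIF-induced genes higher.

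Promoters were compared because many of the genes were lower together. RefSeq promoters were at hand for 33 of the 36 genes, and GRPEL1, TIMM8B and TOMM5 had no entry. In the 250 bases before the start, searched on both strands, median GC was 64.8% in the set and 58% over all 27305 promoters. This background was matched neither for GC nor for expression, and the part of GC in the motif shares below was not tested. The NRF1-type motif GCGCATGC was found in 4 promoters of the set (12.1%, against 2.81% of all), those of CHCHD4, PAM16, TIMM9 and TOMM7. The first 3 belong to genes that fell and the last to one that did not pass, and their stretches are shown with the motif in capitals for that contrast, 5′ to 3′ on the gene's strand.
CHCHD4 (GRCh38.p14, chr3:14124988-14125049, minus): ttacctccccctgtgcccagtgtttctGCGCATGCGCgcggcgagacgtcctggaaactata
PAM16 (chr16:4351332-4351393, minus): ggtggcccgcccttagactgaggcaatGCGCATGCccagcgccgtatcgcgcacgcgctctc
TIMM9 (chr14:58427625-58427686, minus): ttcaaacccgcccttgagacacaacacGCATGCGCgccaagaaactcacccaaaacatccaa
TOMM7 (chr7:22822938-22822999, minus): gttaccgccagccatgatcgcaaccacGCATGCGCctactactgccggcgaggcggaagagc
In CHCHD4 the motif occurs on both strands and overlaps itself.

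The E-box CACGTG was in 4 promoters (12.1%, against 6.49%), those of HSPA9, HSPD1, HSPE1 and TOMM20, and HSPD1 and HSPE1 share 1 copy. TOMM20, which did not pass, carries it 168 bases before its start.
TOMM20 (chr1:235128973-235129032, minus): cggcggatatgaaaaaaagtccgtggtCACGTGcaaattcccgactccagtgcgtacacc
The core of the hypoxia response element, ACGTG, which lies within every CACGTG, was in 11 promoters (33.3%, against 18.7%), of which 6 belong to the 16 called genes with a promoter and 5 to the 16 not called. The ETS-type motif CCGGAAG was in 9 (27.3%, against 8.82%), 4 in called genes and 5 in genes not called. The amino acid response element TGATGNAA was in 2 (6.06%, against 3.19%), PMPCB and TIMM22, neither of them called. The heat shock element core GAANNTTC was in 0 of 33, against 5.85% of all promoters, which says only that these letters are not in this window.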

How the data were processed

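Groups came from the treatment in the labels and replicate numbers from the sample titles. The authors deposited RPKM for 25369 genes in 8 libraries, though the table's name says raw counts. TopHat2 2.0.13, Bowtie2 2.2.3.0 and HTSeq 0.6.1 are among the tools in the submitters' processing notes, which give no role or order. Both hg19 and hg38 are named, and the table's positions are hg19. A second deposited table is the authors' comparison. Per the file headers it holds normalized means (a signal), their ratio, its log2 value and p-values, and its tool was not given in the sources used here.

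For genes with a single listed length, RPKM times length gave whole reads for 100% of values above 0, within 0.01 reads. The 597 genes without a single length were left out of the recovered reads. Counting error alone lets a gene at 0 hold 3 reads (0.0751 to 0.0960 RPM). RPKM were divided by median-ratio factors and tested as log2(RPKM + 1) with limma-trend (limma 3.58.1, R 4.3.3, robust empirical Bayes), two-sided, with Benjamini-Hochberg adjustment over the 11122 genes with 1 RPKM or more in at least 4 of 8 libraries. The 6 libraries are those of the authors' own comparison, and their p-values do not allow for that choice. On simulated data, 6 libraries recovered 48 of 50 genes changed by 0.5-fold and 50 of 50 changed by 0.25-fold. There were 9 false calls among 11041 genes. With 8 libraries it was 50 of 50 at both folds, with 20 false calls, whereas the 8 deposited libraries gave 0 calls. The simulated data had the same setting of spread for every gene. They held no library that stood apart, as DMOG replicate 2 did among the deposited ones. Whether their spread otherwise matches that of the deposited libraries was not tested. These figures therefore describe the procedure on simulated data only. In the 6 libraries, deviations from group means of same-numbered libraries correlated at 0.47, 0.40 and 0.34 for numbers 1, 3 and 4. Every other pair was below 0, but deviations sum to 0 within a group, which by itself pushes the other pairs down. Over 8 libraries the same-numbered values were 0.07, -0.02, 0.53 and 0.24 for numbers 1 to 4. Vehicle replicate 1 with DMOG replicate 2 gave 0.20, and vehicle replicate 2 with DMOG replicate 1 gave 0.22. Whether the numbers pair the samples is thus not settled by these values, and the labels do not say. The main fit has no term for pairing, and the block is given as an alternative.

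Genes named with values in every library are the 2 of each role with the largest absolute fold change in the 6 libraries and all called at least 1.5-fold. Others are given by range or fold change, and list genes are the called ones with the largest changes, up to 3 per list and direction. The fourth HIF-induced gene, uncalled keratinocyte markers, HSF1, NRF1, GRPEL2 and DNAJC15 were named after their values were seen. The genes of the set and all lists were chosen with earlier results of these data known. Alternatives were the RPKM as deposited, upper-quartile factors, a pseudocount of 0.1, no filter, a replicate block, limma-voom on recovered reads, each library left out and vehicle replicate 2 added.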

Additional observations from a re-analysis of the deposited data

Results flagged for a closer look

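Of 70 groups of 4 libraries (35 genes in 2 groups), 4 had 1 library far from the other 3 by Dixon's criterion, or 5.71%, where chance gives about 1 in 20. HSPD1 stood at 84.7 RPKM in DMOG replicate 2, against 31.6 to 35.1 in the other DMOG libraries. TIMM21 stood at 6.26 RPKM in the same library, against 3.55 to 3.85. HSPE1 stood at 12 RPKM in vehicle replicate 2, against 16.8 to 17.6 in the other vehicle libraries, and TOMM40L at 5.19 RPKM there, against 4.15 to 4.26. Replicate 2 of neither group enters the comparison over 6 libraries.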

How the results depend on the processing

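In the 6 libraries, the count of lower genes was 19 with upper-quartile factors (17.6% of all genes lower) and with limma-voom (16.2%), 18 with a pseudocount of 0.1 (15.6%), 14 of 36 with no filter (7.71%), 22 with vehicle replicate 2 added (17.7%) and 29 on the RPKM as deposited (34.5%). With no filter the calls of CHCHD4, GRPEL1, TOMM5, TOMM6 and TOMM70A were lost (adjusted p = 0.0591 to 0.0898). With the replicate block it was 23 (21%), all 19 genes remaining and TOMM34, TIMM17A, TIMM23 and PMPCA joining, and the block changed no other call of the set. Leaving out 1 library gave 8 to 24 lower and 0 to 1 higher genes. Of all genes, 4.85% to 22.7% were lower in these fits, which hold fewer samples. TOMM7 was the gene called higher, without DMOG replicate 3. HSPD1, HSPA9, TIMM44, TIMM8B, TIMM10, TIMM13 and DNAJC19 were called in every such fit. Over 8 libraries leaving out 1 gave 0 to 22 lower genes, 22 without DMOG replicate 2 and 0 otherwise. Some fold changes turned sign: as deposited GFER -0.19, TIMM22 -0.19, TIMM8A -0.01 and TOMM7 -0.03; OXA1L 0.04 without DMOG replicate 1 and 0.00 without DMOG replicate 3 (range -0.09 to 0.04 over all such fits), and TOMM20 0.10 without DMOG replicate 3. The shift of the median gene, -0.26, is part of the first 4, and the cause of the others was not tested.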
